A study of Mus musculus with 48 samples.

Results

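The effect of the peptide LE on RAW264.7 mouse macrophages was measured with and without IFN-γ, and the difference between these effects on the log2 scale is called the interaction here. It was computed as (LE+IFNy minus IFNy) minus (LE minus PBS) from 12 of the 48 libraries of the series, 3 in each of 4 groups, all of them libraries labelled with a letter. PBS cells received vehicle only, LE cells 100 µg/ml of peptide, IFNy cells 5 ng/ml of IFN-γ, and LE+IFNy cells both, all for 72 h, so that every group shared the cell line and the exposure time. LE is a synthetic linear peptide copied from the cusp region of the HLA-DR β chain coded by the DRB1 allele that carries risk of systemic lupus erythematosus, SE is the corresponding peptide of a rheumatoid arthritis risk allele and PE that of a protective allele. RAW264.7 is a virus-transformed tumour line, so its cells divide in culture, and a single mouse line stands here for macrophages. The other 12 letter-labelled libraries (SE, PE, SE+IFNy and PE+IFNy) entered the fit for its estimate of the spread and for comparison. The study describes its RAW264.7 libraries as biological replicates from independent experiments, with fewer experiments than replicates. Which libraries share a culture or an experiment is not in the labels. The 3 libraries of a group may thus come from a single experiment, and p-values measure the spread between these libraries.

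IFN-γ binds a receptor on the macrophage surface whose Janus kinases, JAK1 and JAK2, start a signal to the nucleus that switches on guanylate-binding proteins, antigen presentation genes and the transcription factor IRF1. A second arm of macrophage activation runs through NF-κB and the MAP kinases to immediate-early genes, chemokines and TNF, and IFN-γ is known for priming macrophages so that a second stimulus has a larger effect on these genes. The interaction measures how the LE effect differs with IFN-γ, and priming as such was not tested. It is positive where LE raised a gene more, or lowered it less, with IFN-γ than without it.

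Each library held 18.65 M to 26.93 M counts (M for mega), and the 10 most abundant genes took 7.492% to 8.599% of them. Over the letter-labelled libraries IFN-γ target genes went with the label in all 24, with mean levels of 1.31 to 1.62 log2 CPM without IFN-γ and 6.3 to 6.81 with it. CPM are counts per mega of a library's total. The levels of target and marker genes in this paragraph are without TMM scaling, and CPM in the later paragraphs are after it. The 24 libraries with an HLA label are not part of the comparison, and in 12 of them the same genes went against the label. All 9 macrophage markers were above 10 CPM in each group, with a summed level of 10600 to 12100 CPM in PBS, 10900 to 11600 in LE, 8320 to 8900 in IFNy and 9490 to 10200 in LE+IFNy. Cd3e and Cd8a (T cells), Ms4a1 (B cells), Epcam and Krt8 (epithelium) and Ly6g (neutrophils) had 0 counts in the 12 libraries. Other markers of these types had some, up to 18 for Cd4 and 32 for Mpo. Summed markers reached at most 0.816 CPM for T cells, 0.235 for B cells, 0.0438 for epithelium and 1.49 for neutrophils. For fibroblasts and dendritic cells they reached 1.18 and 2.17. Osteoclast markers were expressed, with sums of 436 to 485 CPM in PBS, 466 to 513 in LE, 149 to 163 in IFNy and 223 to 237 in LE+IFNy. In such bulk RNA a change in the number of cells of one state and a change in RNA per cell cannot be told apart.

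The interaction was called for 2471 of 13096 genes (18.9%) at an edgeR adjusted p under 0.05 and a fold over 1.5. It was higher for 1478 genes (11.3%) and lower for 993 (7.58%), and the median over all genes tested was -0.02 on the log2 scale. LE alone against PBS changed 7 genes (0.0535%), all higher, while 2824 genes had an unadjusted p under 0.05. LE added to IFN-γ raised 1161 genes (8.87%) and lowered 721 (5.51%). The genes with a higher interaction had a median LE effect of -0.22 without IFN-γ and 0.68 with it, and those with a lower interaction 0.18 and -0.62. The 3 LE+IFNy libraries lay above all 9 other libraries in 1043 of the 1478 higher genes (70.6%, against 18.2% of all genes tested) and below them in 719 of the 993 lower genes (72.4%, against 17.4%). These shares describe genes that the same contrast had called. Computed on the CPM scale instead of the log2 scale, the interaction had the same sign in 1478 of the 1478 higher and 991 of the 993 lower genes.

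**Figure D1:**
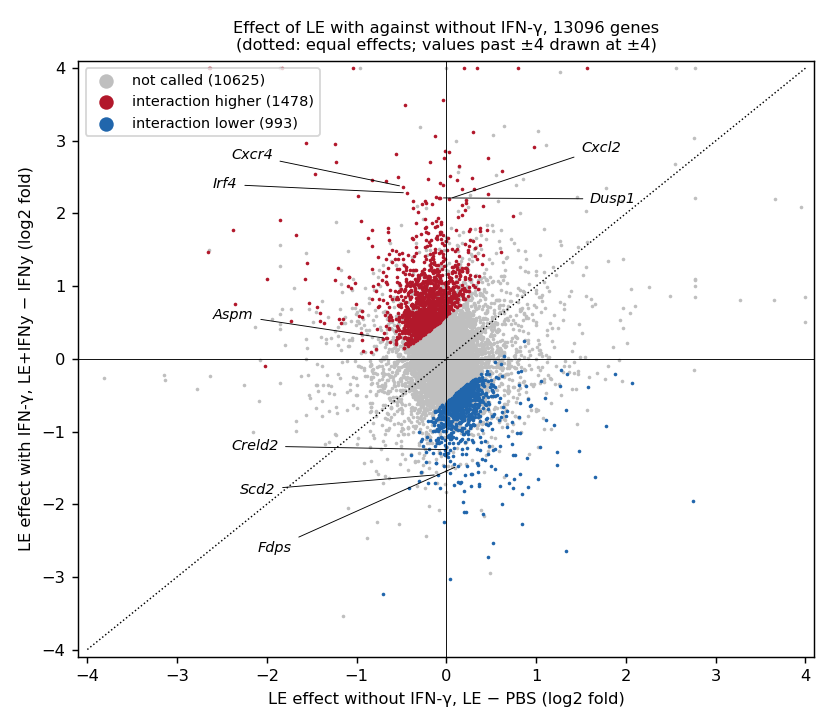
Each point is 1 of 13096 genes, with the log2 fold of LE against PBS on the x axis and of LE+IFNy against IFNy on the y axis, and values past 4 drawn at the edge. The called genes spread mainly along the y axis: the SD over genes was 0.35 without and 0.55 with IFN-γ.

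The effects without and with IFN-γ come from separate libraries, and across the 13096 genes they had a Pearson correlation of -0.08 and a Spearman correlation of -0.21, given as a description of genes that are not independent replicates. Both also moved with transcript length and GC content. The Spearman correlation of the interaction was 0.32 with length and -0.39 with GC, that of the LE effect without IFN-γ -0.37 and 0.42, and that of the LE effect with IFN-γ 0.21 and -0.27. Genes with a higher interaction had a median transcript length of 4498 bases and 44.4% GC, those with a lower one 2250 bases and 53.9% GC, and all genes 3123 bases and 49.7%. With this trend subtracted, 1611 of 12731 genes were called (941 higher, 670 lower), and 49.6% of the 2406 calls with a known length remained. Counts for the gene lists below are therefore also given with the trend subtracted. What part length and GC have in single genes was not tested.

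Regulatory windows of genes that carry the groups below are shown first, with matches to the motif named for each gene in capitals. Matches to other motifs searched for stay in lower case. How many members of a group hold each motif follows the sequences. Each is a RefSeq promoter (GRCm38.p6) of 300 bases, 250 before and 50 after the start, 5′ to 3′ along the gene. The first set belongs to inflammatory genes with a higher interaction. Capitals mark matches to the NF-κB site in the chemokine gene Cxcl2 (chr5:90903649-90903948, + strand) and in Tnfaip3, which codes for the NF-κB inhibitor A20 (chr10:19015361-19015660, - strand), and the cyclic AMP response element TGACGTCA in Dusp1, a phosphatase of MAP kinases (chr17:26508423-26508722, - strand).
Cxcl2: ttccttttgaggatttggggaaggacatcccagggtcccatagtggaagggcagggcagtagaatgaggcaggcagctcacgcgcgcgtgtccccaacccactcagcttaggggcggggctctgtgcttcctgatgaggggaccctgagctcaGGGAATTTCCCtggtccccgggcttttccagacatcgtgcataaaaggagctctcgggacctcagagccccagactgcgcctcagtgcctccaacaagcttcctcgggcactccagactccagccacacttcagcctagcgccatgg
Tnfaip3: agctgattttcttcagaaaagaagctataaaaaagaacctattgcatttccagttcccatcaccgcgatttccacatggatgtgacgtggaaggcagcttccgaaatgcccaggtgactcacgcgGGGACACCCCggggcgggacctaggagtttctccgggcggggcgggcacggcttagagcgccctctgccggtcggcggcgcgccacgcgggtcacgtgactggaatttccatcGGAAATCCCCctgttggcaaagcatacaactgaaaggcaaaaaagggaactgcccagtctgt
Dusp1: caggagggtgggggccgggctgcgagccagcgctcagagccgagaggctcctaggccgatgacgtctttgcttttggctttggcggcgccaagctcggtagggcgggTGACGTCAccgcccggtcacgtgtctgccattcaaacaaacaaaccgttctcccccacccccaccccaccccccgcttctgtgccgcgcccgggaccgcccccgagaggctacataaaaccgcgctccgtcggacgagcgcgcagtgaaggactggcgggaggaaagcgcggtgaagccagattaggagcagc

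The second set belongs to genes of the cell cycle. Capitals mark the E2F site in Pola1, the catalytic subunit of DNA polymerase α (chrX:93632106-93632405, - strand), and the CHR element TTTGAA, read on both strands, in Aspm, a spindle pole gene (chr1:139454523-139454822, + strand), and Ncapg, a condensin subunit (chr5:45669675-45669974, + strand).
Pola1: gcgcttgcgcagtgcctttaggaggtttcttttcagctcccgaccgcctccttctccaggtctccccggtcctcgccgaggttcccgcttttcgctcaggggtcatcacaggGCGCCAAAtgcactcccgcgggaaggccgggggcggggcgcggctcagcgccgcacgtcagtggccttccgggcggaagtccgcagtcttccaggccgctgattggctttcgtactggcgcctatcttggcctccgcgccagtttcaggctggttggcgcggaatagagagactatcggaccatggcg
Aspm: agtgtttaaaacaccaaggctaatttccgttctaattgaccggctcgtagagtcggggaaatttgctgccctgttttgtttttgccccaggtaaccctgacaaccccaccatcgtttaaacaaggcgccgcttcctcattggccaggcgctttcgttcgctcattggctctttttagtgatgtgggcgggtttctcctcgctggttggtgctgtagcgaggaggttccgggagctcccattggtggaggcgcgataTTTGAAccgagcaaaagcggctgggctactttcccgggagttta
Ncapg: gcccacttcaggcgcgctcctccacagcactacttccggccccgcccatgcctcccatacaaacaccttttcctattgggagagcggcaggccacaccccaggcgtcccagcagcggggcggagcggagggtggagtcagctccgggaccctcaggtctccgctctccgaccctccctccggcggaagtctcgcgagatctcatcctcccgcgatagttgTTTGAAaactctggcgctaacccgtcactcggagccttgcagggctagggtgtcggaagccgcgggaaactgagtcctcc

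The third set belongs to chaperone genes of the endoplasmic reticulum with a lower interaction. Capitals mark the ER stress response element, in which CCAAT and CCACG stand 9 bases apart, read here on the opposite strand, in Creld2 (chr15:88819396-88819695, + strand) and in Calr, which codes for calreticulin (chr8:84846882-84847181, - strand).
Creld2: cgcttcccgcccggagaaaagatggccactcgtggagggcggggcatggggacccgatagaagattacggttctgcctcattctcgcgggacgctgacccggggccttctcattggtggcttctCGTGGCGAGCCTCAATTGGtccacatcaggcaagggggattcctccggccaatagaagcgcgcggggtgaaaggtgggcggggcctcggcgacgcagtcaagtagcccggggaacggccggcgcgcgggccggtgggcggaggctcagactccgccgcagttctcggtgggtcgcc
Calr: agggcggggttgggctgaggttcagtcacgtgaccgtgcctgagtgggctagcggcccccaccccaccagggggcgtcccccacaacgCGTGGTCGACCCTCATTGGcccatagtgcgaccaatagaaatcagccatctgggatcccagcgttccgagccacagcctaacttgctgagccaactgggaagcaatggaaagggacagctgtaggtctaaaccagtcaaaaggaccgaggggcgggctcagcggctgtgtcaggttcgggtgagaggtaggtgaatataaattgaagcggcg

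Promoters were found for 9408 of the genes tested, and motifs were searched on both strands. The CHR element TTTGAA was in 28 of 35 promoters of mitosis genes (80%), in 16.8% of the promoters of genes with a higher interaction and in 12.2% of all. An E2F site (TTTCCCGC, TTTGCCGC, TTTCGCGC or TTTGGCGC) was in 34.4% of 32 DNA replication promoters, 6.94% of those with a higher interaction and 4.22% of all. The ER stress response element was in 8 of 19 promoters of ER chaperone genes (42.1%), in 0.688% of those with a lower interaction and in 0.17% of all, and it overlaps the CCAAT box, which 39.1% of all promoters held. The NF-κB site was in 33.3% of 9 chemokine promoters, 40% of 15 cytokine and enzyme promoters and 10.1% of all, while genes with a higher interaction had it in 10.6% and those with a lower one in 8.94%. The cyclic AMP response element was in 10.5% of 19 immediate-early promoters, 4.47% of those with a higher interaction and 3.43% of all. The interferon-stimulated response element, GAAA repeated after a gap of 2 bases, was in 47.1% of 17 promoters of IFN-γ targets and in 4.66% of those with a higher interaction, against 3.38% of all. The sterol element TCACNCCAC was in 6.25% of 16 cholesterol and fatty acid synthesis promoters and 1.02% of all. A match describes letters in this window, not a bound site. Among 23 called mitosis genes with a promoter 18 held the CHR element, among 17 called replication genes 7 held an E2F site, and among 12 called ER chaperone genes 5 held the ER stress response element.

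**Figure D2:**
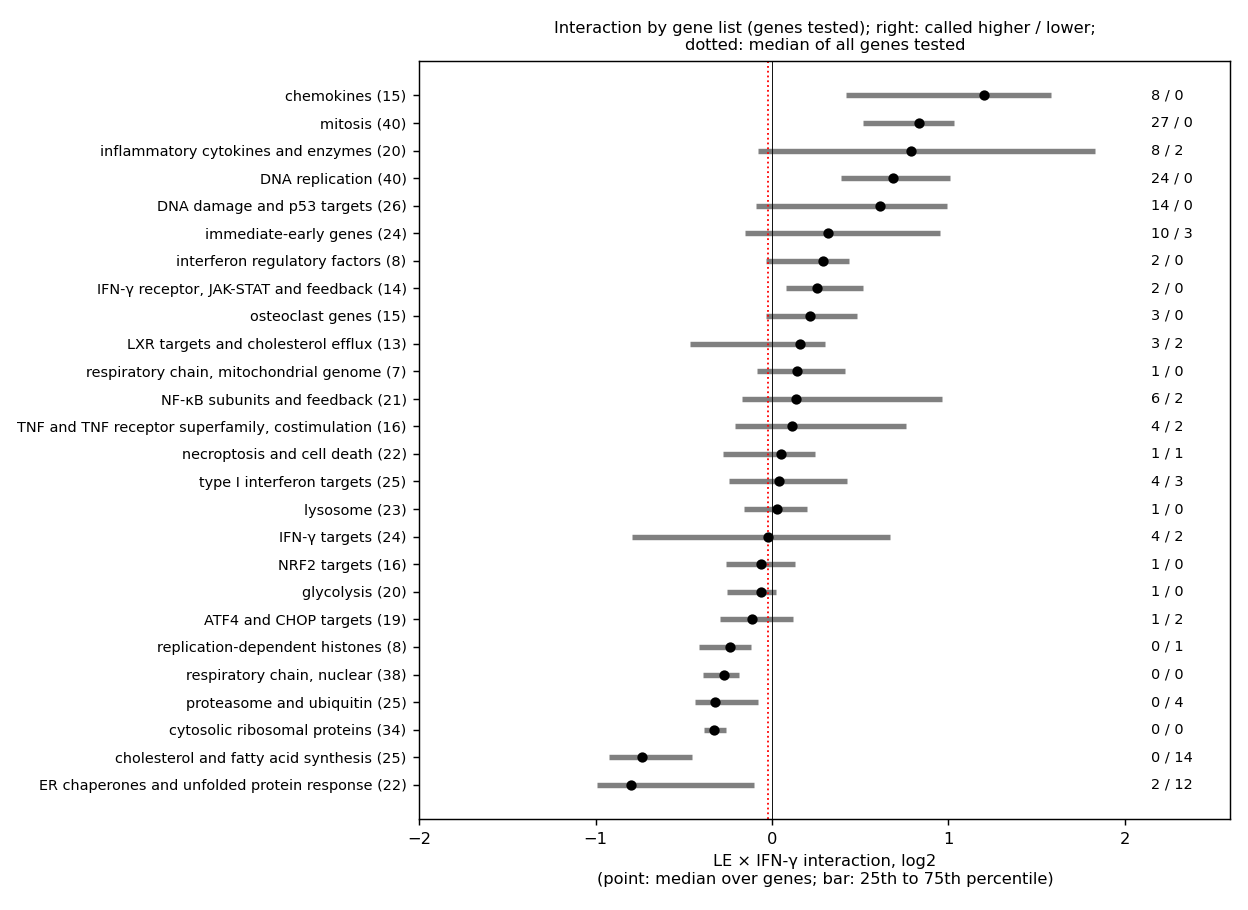
Median log2 interaction (points) with the 25th to 75th percentile over genes (bars) for 26 gene lists, with the number of genes tested in brackets and the numbers called higher and lower at the right. Chemokines, mitosis and DNA replication stand at the positive end and ER chaperones and cholesterol synthesis at the negative end.

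The largest positive interactions among well expressed genes were those of a chemokine receptor, transcription factors and feedback regulators. Cxcr4, the receptor for the chemokine CXCL12 (chromosome 1, 128588199 to 128592293), had 11.6, 9.7 and 9.96 CPM in PBS, 7.24, 8.09 and 7.03 in LE, 9.71, 8.73 and 11 in IFNy, and 43.8, 51.4 and 57.1 in LE+IFNy. No call was made for either agent alone against PBS, and the LE+IFNy libraries did not overlap the rest. Its interaction was 2.85 (SE 0.186, edgeR adjusted p 3.51e-10), a 7.23-fold difference. Irf4, an interferon regulatory factor that acts in alternatively activated macrophages and in lymphocytes (chromosome 13, 30749226 to 30766976), had 8.9, 6.02 and 8.41 CPM in PBS, 4.38, 5.99 and 6.98 in LE, 5.23, 4.11 and 4.6 in IFNy, and 22.7, 22.1 and 23.2 in LE+IFNy. It was thus lowest in IFNy and highest, with no overlap, in LE+IFNy, and its interaction was 2.72 (SE 0.286, adjusted p 1.87e-07).

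Id2, an inhibitor of helix-loop-helix factors, had 6.07 to 10.5 CPM in the 9 libraries of PBS, LE and IFNy and 43.4, 46.1 and 46.9 in LE+IFNy, with no overlap and an interaction of 2.34. Xylt1, which starts glycosaminoglycan chains on proteoglycans, followed another course. It had 22.6, 21.8 and 22.6 CPM in PBS, 17.3, 20.9 and 18.8 in LE, 7.72, 7.3 and 6.99 in IFNy and 33.5, 29.8 and 36.3 in LE+IFNy. IFN-γ lowered it in the absence of LE and raised it in the presence of LE, and its interaction was 2.41 (SE 0.156, adjusted p 3.51e-10). Gda, a guanine deaminase, had the same order, with 9.9, 9.53 and 10.3 CPM in IFNy, 42.8, 39.8 and 47.5 in LE+IFNy and 18.9 to 36.3 without IFN-γ, and an interaction of 2.4. Tnfrsf9, the receptor 4-1BB, was lower in IFNy (1.54, 1.95 and 3.05 CPM) than in PBS (10.1, 23.3 and 23.8) and stood at 13.7, 10.9 and 11.1 in LE+IFNy. Its interaction of 2.34 thus came with levels in LE+IFNy that overlapped those in PBS and LE.

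**Figure D3:**
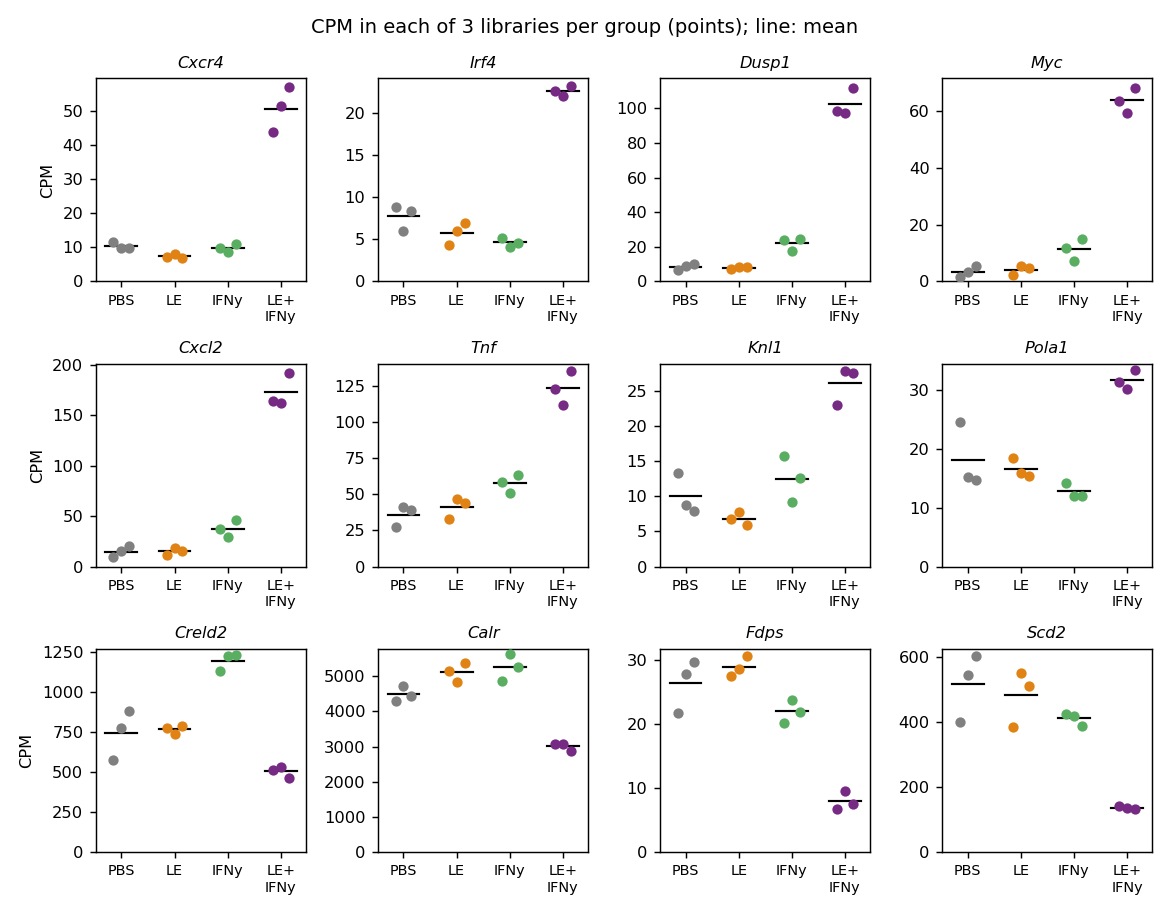
CPM of 12 genes in each of the 3 libraries per group (points) with the group mean (line), each axis starting at 0. In the upper 8 genes, Cxcr4 to Pola1, the LE+IFNy libraries lie above all others, with 43.8 to 57.1 CPM for Cxcr4 and 30.3 to 33.5 for Pola1, and in the other 4 genes they lie under all others, with 6.73 to 9.51 CPM for Fdps.

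Immediate-early genes are transcribed within minutes of a stimulus and code for transcription factors and for phosphatases that switch the stimulus off. Of 24 tested, 10 had a higher interaction and 3 a lower one (Fosl1, Ier2 and Klf2), with a median of 0.32, and 10 and 0 with the trend subtracted. The shares were 41.7% higher and 12.5% lower, against 11.3% and 7.58% of all genes. Dusp1 had 6.49, 8.68 and 9.82 CPM in PBS, 7.2, 8.28 and 8.25 in LE, 24, 17.6 and 24.6 in IFNy and 98.4, 97.1 and 112 in LE+IFNy. IFN-γ alone raised it and LE added to IFN-γ raised it further, while LE alone left it at PBS levels, and the interaction was 2.29 (SE 0.193, adjusted p 1.25e-08). Myc, a transcription factor of growth and division, rose in the same order from 1.69, 3.19 and 5.48 CPM in PBS and 2.43, 5.33 and 4.82 in LE to 11.9, 7.34 and 14.8 in IFNy and 63.5, 59.3 and 68 in LE+IFNy, with an interaction of 2.21 (SE 0.437). Egr1, a zinc finger factor, had 5.86 to 10.9 CPM in the 9 libraries without both agents and stood at 40.7, 37.9 and 47.8 in LE+IFNy, with an interaction of 2.49. Maff, a small Maf factor, had an interaction of 1.51. Egr2 had one of 2.9 at low levels, named after its values were seen, with 0.678 to 3.38 CPM in 9 libraries and 5.33 to 7.62 in LE+IFNy.

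NF-κB subunits and feedback genes were mixed, with 6 higher and 2 lower (Icam1 and Nfkbie) of 21 and a median of 0.14 (7 and 1 with the trend subtracted). The share called higher was 28.6%, against 11.3% of all genes. The share called lower, 9.52%, was near the 7.58% of all genes. Gadd45b, a stress and survival gene, had 19.5 to 29.1 CPM in the 9 libraries of the other groups and 117, 124 and 156 in LE+IFNy, and an interaction of 2.17 (SE 0.165, adjusted p 2.86e-09). Nfkbiz, which codes for the nuclear inhibitor IκBζ, had 21.7, 14.3 and 19.1 CPM in IFNy and 46.7, 44.1 and 49.9 in LE+IFNy (interaction 1.73). Tnfaip3 had 9.78, 10.1 and 8.4 CPM in IFNy, below the 14.5 to 21.7 of PBS and LE, and 26.4, 24.8 and 29.9 in LE+IFNy (1.45), and Rel, an NF-κB subunit, had an interaction of 1.15. Traf1, a signalling adaptor of TNF receptors, had one of 0.97 (adjusted p 0.00316). Relb, the subunit of the alternative NF-κB pathway, was not called: its interaction was 0.41 (adjusted p 0.0147), under the 1.5-fold limit.

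Chemokines draw leukocytes to a tissue. Of 15 tested, 8 had a higher interaction and 0 a lower one (8 against 11.3% of all genes), with a median of 1.2 and median LE effects of 0.10 without and 1.49 with IFN-γ; with the trend subtracted 9 were higher. Cxcl2, a neutrophil attractant (chromosome 5, 90903871 to 90905938), had 9.1, 15.4 and 20.3 CPM in PBS, 11.8, 18.1 and 15.8 in LE, 37.5, 29.5 and 45.9 in IFNy and 164, 162 and 192 in LE+IFNy. LE left it within the range of PBS, and with IFN-γ its libraries lay over 3 times above every other. The interaction was 2.17 (SE 0.307, adjusted p 8.47e-06). Ccl3, which attracts monocytes and T cells, rose from 391, 396 and 471 CPM in IFNy to 1320, 1400 and 1550 in LE+IFNy, against 233, 283 and 291 in PBS and 317, 354 and 376 in LE (interaction 1.39, SE 0.138). Cxcl16, a membrane-bound ligand of CXCR6, had 86.6, 71.1 and 99.8 CPM in IFNy and 223, 234 and 269 in LE+IFNy (1.49). Ccl5, an attractant of T cells and monocytes, had 7.76, 7.42 and 8.82 CPM in IFNy and 31.2, 31.8 and 30.5 in LE+IFNy (1.23, SE 0.282, adjusted p 0.00139). Cxcl10, a CXCR3 ligand and IFN-γ target, was low throughout, with 3.68, 4.11 and 4.51 CPM in IFNy and 11.7, 11.4 and 18.8 in LE+IFNy (1.66, adjusted p 0.00725), and its call was lost without PBS replicate 3 (0.958).

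Among inflammatory cytokines and enzymes 8 of 20 were higher and 2 lower (Csf1 and Il23a), with a median of 0.79 (7 and 2 with the trend subtracted). The shares were 40% higher and 10% lower, against 11.3% and 7.58% of all genes. Ptgs2, the prostaglandin synthase COX-2, had 2.26 to 5.76 CPM without IFN-γ, 70.8, 45.5 and 61.4 in IFNy and 266, 208 and 273 in LE+IFNy, and an interaction of 2.44 (SE 0.419, adjusted p 7.97e-05). Il1rn, which codes for the antagonist of the IL-1 receptor, had 150, 99.9 and 169 CPM in IFNy and 463, 469 and 535 in LE+IFNy (2.04), and Acod1, which makes itaconate, 79.3, 121 and 80.3 against 422, 419 and 514 (1.8). Tnf, a cytokine that drives inflammation through NF-κB, had 27.4, 41.3 and 39.1 CPM in PBS, 33.1, 46.9 and 44.2 in LE, 58.8, 50.8 and 63 in IFNy and 123, 112 and 135 in LE+IFNy (0.90, SE 0.229, adjusted p 0.00337). All these genes were highest, with no overlap, in LE+IFNy. Csf3, the granulocyte growth factor, had the highest fitted value of the list, 5.35, on 0 to 1 counts per library in IFNy and 52 to 71 in LE+IFNy, so that its size rests on a group at the floor of 3 counts; it is named after its values were seen.

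Other cytokine genes of this kind gave no call. Nos2, the inducible nitric oxide synthase, went from 312, 263 and 313 CPM in IFNy to 565, 507 and 596 in LE+IFNy, but its levels without IFN-γ spread from 7.49 to 31.3 in PBS and from 16.8 to 36.4 in LE, and the interaction of 0.54 (95% interval -0.51 to 1.58) had an adjusted p of 0.43. Il6 stood under 5 CPM in every library (interaction -0.14, interval -1.55 to 1.28) and Il1b under 2 (0.78, interval -1.53 to 3.09). These intervals leave room for changes as large as those called elsewhere.

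IFN-γ targets had few calls, in both directions. Of 24 tested, 4 were higher (16.7%, against 11.3% of all genes) and 2 lower (8.33%, against 7.58%). The median was -0.02, although the response to IFN-γ itself had a median of 3.45 without and 4.36 with LE. Gbp2, a guanylate-binding protein that acts on intracellular pathogens, had under 1 CPM without IFN-γ, 152, 132 and 150 in IFNy and 386, 377 and 440 in LE+IFNy (interaction 1.52, adjusted p 0.00148), and Gbp7 had one of 1.47. Cd274, the checkpoint ligand PD-L1, had 18.3 to 21.9 CPM without IFN-γ, 99.7, 111 and 99 in IFNy and 218, 207 and 246 in LE+IFNy (1.07, SE 0.115, adjusted p 2.55e-07). In contrast H2-Ab1, a chain of MHC class II, had 662, 523 and 743 CPM in IFNy and 396, 436 and 487 in LE+IFNy, with no overlap and an interaction of -1.46 (adjusted p 0.015). Its level without IFN-γ was under 1 CPM in all 6 libraries, with at most 12 counts per library in PBS and 17 in LE. The LE effect was 0.91 in those libraries and -0.55 with IFN-γ, the latter under the fold limit, so that most of the interaction came from libraries with low counts, and the call was lost without LE replicate 1 (-1.35) or LE replicate 3 (-1.17). Cd74, the MHC class II invariant chain, also had a lower interaction. With the trend subtracted the counts of this list were 3 higher and 0 lower. Irf7, a regulator of type I interferon genes, had 156, 126 and 170 CPM in IFNy and 291, 303 and 323 in LE+IFNy (0.72, adjusted p 0.000523).

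Type I interferon targets also had few calls, with 4 higher and 3 lower of 25 (4 and 0 with the trend subtracted) and a median of 0.04. These shares of 16% and 12% were near the 11.3% and 7.58% of all genes. Rsad2, the antiviral protein viperin, rose from 19.1, 17.7 and 17.6 CPM in IFNy to 59.1, 56.3 and 70.1 in LE+IFNy (1.31). Isg15, a ubiquitin-like modifier, stood at 52.5, 48.3 and 53.9 CPM in IFNy and at 37.9, 42.8 and 40.3 in LE+IFNy (-0.67), and Isg20, an exonuclease, had an interaction of -0.86. Ifi44 was not called (-0.05, interval -0.37 to 0.27).

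To ask how the interaction fell on genes that answer IFN-γ, these were chosen in PE+IFNy against PE, libraries outside the contrast. Of 1539 genes (11.8%) raised by IFN-γ there, 260 had a higher interaction (16.9%, against 11.3% of all) and 111 a lower one (7.21%), with a median of 0.11. Of 1171 genes lowered there (8.94%), 126 were higher (10.8%) and 140 lower (12%), with a median of -0.12. Of the remaining 10386 genes, which did not pass the adjusted p and fold limits there, 10.5% were higher and 7.14% lower, with a median of -0.03.

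Many DNA replication and mitosis genes had higher interactions, and none of either list was called lower. The share called higher was 60% of DNA replication and 67.5% of mitosis genes, against 11.3% of all genes. Of all genes 7.58% were lower. Of 40 DNA replication genes 24 were higher and 0 lower (28 and 0 with the trend subtracted), with a median of 0.68, and of 40 mitosis genes 27 were higher and 0 lower (24 and 0), with a median of 0.83 and a positive value in all 40. The median LE effect on replication genes was 0.13 without and 0.83 with IFN-γ, and that on mitosis genes -0.29 and 0.47, so that in mitosis genes a part of the interaction lies in lower values with LE alone. The mean level of the mitosis genes was 5.06, 4.94 and 5.19 log2 CPM in PBS, 4.85, 4.72 and 4.72 in LE, 5.58, 5.11 and 5.62 in IFNy and 5.86, 5.9 and 6.08 in LE+IFNy. That of the replication genes was 5.54, 5.22 and 5.05 in PBS, 5.48, 5.33 and 5.39 in LE, 5.08, 4.98 and 5.14 in IFNy and 5.81, 5.81 and 5.94 in LE+IFNy. For both lists the LE+IFNy libraries lay above the other 9.

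Pola1 had 24.7, 15.2 and 14.7 CPM in PBS, 18.5, 15.9 and 15.4 in LE, 14.3, 12 and 12.1 in IFNy and 31.4, 30.3 and 33.5 in LE+IFNy (interaction 1.44, SE 0.232, adjusted p 4.04e-05). PBS replicate 1 stood above the other PBS libraries here, and without it 2138 genes were called in all. Lig1, a DNA ligase, had 42.1, 38.9 and 44.2 CPM in IFNy and 113, 111 and 124 in LE+IFNy (1.24), and Pole, a replicative polymerase, 37.8, 29.2 and 34.3 against 78.2, 71.3 and 82.6 (1.14). In each case the LE+IFNy libraries were the highest of the 12. The called genes included the helicase subunits Mcm3, Mcm4, Mcm5, Mcm6 and Mcm7, the sliding clamp Pcna and both subunits of ribonucleotide reductase, Rrm1 and Rrm2.

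Bub1, a kinase of the spindle checkpoint, had 25, 18.7 and 23.3 CPM in PBS, 21.6, 19.3 and 16.2 in LE, 35, 22 and 31.6 in IFNy and 71.4, 74.6 and 83.5 in LE+IFNy (interaction 1.6, SE 0.206, adjusted p 2.7e-06). Knl1, a kinetochore scaffold, had 15.7, 9.17 and 12.6 CPM in IFNy and 23, 27.8 and 27.5 in LE+IFNy (1.61), Ncapg 25.6, 17.1 and 28 against 43.2, 52.9 and 55.7 (1.45), and Ect2, a factor of cytokinesis, 13.3, 9.85 and 13.8 against 21.7, 21.6 and 23.9 (1.5). These genes too were highest in LE+IFNy with no overlap. Aspm differed: it had 16.9, 11.9 and 14.9 CPM in IFNy and 16, 15.9 and 21.2 in LE+IFNy, which overlap, and 11.5, 13.2 and 14.8 in PBS against 8.59, 8.09 and 8.19 in LE, so that its interaction of 0.94 came mostly from the libraries without IFN-γ.

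Genes of the DNA damage response and p53 targets had 14 higher and 0 lower of 26, with a median of 0.61 (11 and 0 with the trend subtracted). This was 53.8% higher, against 11.3% of all genes. Plk2, a p53-inducible kinase, had 106, 79.3 and 112 CPM in IFNy and 371, 344 and 436 in LE+IFNy (1.83, SE 0.223, adjusted p 1.41e-06). Chek1, a checkpoint kinase of S phase, had 5.15, 4.75 and 4.83 CPM in IFNy and 15.4, 14.7 and 16.8 in LE+IFNy (1.79), Fancd2 one of 1.25 and Brca1 one of 1.15, both of which act in repair of DNA during replication. Of the replication-dependent histones 8 of 37 could be tested in this poly(A) RNA, and only the linker histone Hist1h1c was called (1 higher and 1 lower with the trend subtracted), with 30.3, 27 and 31.2 CPM in IFNy and 13.3, 13.1 and 13.4 in LE+IFNy (-1.05).

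The endoplasmic reticulum (ER) folds secreted proteins with chaperones whose genes are switched on by the unfolded protein response. Of 22 such genes, 12 had a lower interaction and 2 a higher one (11 and 1 with the trend subtracted; 7.58% of all genes were lower), with a median of -0.8 and median LE effects of -0.04 without and -0.74 with IFN-γ. Their mean level was 9.53, 9.61 and 9.67 log2 CPM in PBS, 9.61, 9.54 and 9.54 in LE, 9.88, 9.88 and 9.88 in IFNy and 9.33, 9.35 and 9.24 in LE+IFNy. IFN-γ alone had the highest and the combination the lowest level, with no overlap. Creld2, a chaperone with disulfide isomerase activity (chromosome 15, 88819646 to 88826683), had 574, 776 and 877 CPM in PBS, 775, 737 and 786 in LE, 1130, 1220 and 1230 in IFNy and 511, 532 and 462 in LE+IFNy (-1.3, SE 0.16, adjusted p 1.51e-06). Sdf2l1 had 846, 891 and 907 CPM in IFNy and 409, 459 and 392 in LE+IFNy (-1.14), and the co-chaperones Dnajc3 and Dnajb11 had interactions of -1.11 and -1.08.

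Calr codes for calreticulin, a lectin chaperone that is also found at the cell surface, and had 4300, 4730 and 4440 CPM in PBS, 5140, 4850 and 5380 in LE, 4860, 5650 and 5270 in IFNy and 3070, 3070 and 2870 in LE+IFNy (-1, SE 0.096, adjusted p 5.98e-08). Lrp1, a scavenger receptor that pairs with cell surface calreticulin, went the other way: 492, 426 and 403 CPM in IFNy and 722, 579 and 654 in LE+IFNy (0.70, adjusted p 0.000609), both below the 790 to 1040 of PBS and LE. Hspa5, the chaperone BiP, had 14800, 12800 and 14800 CPM in IFNy and 10200, 10500 and 9410 in LE+IFNy, and its interaction of -0.4 (adjusted p 0.0218) stayed under the fold limit. Ddit3, the stress factor CHOP, had 1270, 1200 and 1440 against 961, 1000 and 1010 CPM (-0.35, adjusted p 0.222) and was not called. Both genes lay above all PBS and LE libraries in the groups with IFN-γ. The members with a higher interaction were Ern1, the stress sensor IRE1α, and Dnajb9, a co-chaperone. Of 19 targets of ATF4 and CHOP, 1 was higher (Slc7a11, a cystine transporter, 0.94) and 2 lower (Aldh1l2, -0.86, and Phgdh of serine synthesis, -0.81), with a median of -0.11. The shares of 5.26% higher and 10.5% lower stood beside 11.3% and 7.58% of all genes. With the trend subtracted from the edgeR values 0 were higher and 1 lower.

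Cholesterol and fatty acid synthesis genes, most of them targets of the SREBP factors, had 14 lower and 0 higher interactions of 25 (15 and 0 with the trend subtracted), with a median of -0.74. This was 56% lower, against 7.58% of all genes. Their mean level was 6.06, 6.04 and 6.07 log2 CPM in PBS, 6.05, 6.09 and 6.05 in LE, 5.56, 5.57 and 5.49 in IFNy and 4.83, 4.83 and 4.81 in LE+IFNy. The PBS and LE libraries overlapped, those of IFNy lay under them, and those of LE+IFNy were the lowest. Fdps, which makes farnesyl pyrophosphate (chromosome 3, 89093588 to 89101959), had 21.8, 27.9 and 29.7 CPM in PBS, 27.5, 28.6 and 30.6 in LE, 20.2, 23.8 and 21.9 in IFNy and 6.73, 9.51 and 7.49 in LE+IFNy (-1.6, SE 0.21, adjusted p 3.32e-06). Scd2, a fatty acid desaturase, had 399, 545 and 601 CPM in PBS, 384, 551 and 511 in LE, 425, 418 and 388 in IFNy and 140, 136 and 132 in LE+IFNy (-1.5, SE 0.209, adjusted p 7.22e-06). In both genes the LE+IFNy libraries lay under all others. Hmgcs1, an SREBP target of the same pathway named after its values were seen, was not called (-0.19).

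LXR targets and cholesterol efflux genes were mixed, with 3 higher and 2 lower of 13 and a median of 0.16. These were 23.1% and 15.4%, against 11.3% and 7.58% of all genes. With the trend subtracted 2 were higher and 2 lower. Abca1, the transporter that loads HDL, had 10.7, 6.42 and 4.83 CPM in IFNy and 17.1, 12 and 15.9 in LE+IFNy (1.68, SE 0.387, adjusted p 0.00145), within the range of PBS (15.3 to 17.7) or below it. Nr1h3, the receptor LXRα, had an interaction of 0.84, Lpl, which splits triglycerides, one of 0.67, and Lpcat3, a phospholipid-remodelling enzyme, one of -0.85.

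Further genes with the most negative interactions had no list in common. Avil, an actin-binding protein of the villin family, had 212, 236 and 188 CPM in PBS, 313, 317 and 334 in LE, 259, 400 and 229 in IFNy and 95.9, 102 and 66 in LE+IFNy. The LE libraries lay above those of PBS (log2 fold 0.60, adjusted p 0.0667, not called), those of LE+IFNy lay under all others, and the interaction was -2.35 (SE 0.224, adjusted p 5.35e-08). Lcn2, the iron-siderophore carrier lipocalin 2, rose with LE alone from 13.3, 15.8 and 13.4 to 35.2, 33.5 and 39.4 CPM, and stood at 94.3, 117 and 102 in IFNy and 95.2, 97.6 and 78.9 in LE+IFNy, so that its interaction of -1.55 came from the libraries without IFN-γ. Pi16 had 50.8, 70 and 50.1 CPM in IFNy and 13.8, 14.8 and 11.1 in LE+IFNy (-2.32). Cdsn, corneodesmosin, was raised by IFN-γ alone to 64.4, 94.4 and 68.8 CPM and stood at 27.7, 30.8 and 20.6 in LE+IFNy, against 14.9, 19.8 and 18.3 in PBS (-2.07). Acy1, an aminoacylase (-1.82), Fkbp11, a prolyl isomerase of the ER (-1.77), Akr1b7, an aldo-keto reductase (-1.63), Car6, a carbonic anhydrase (-1.58), and Avpi1 (-1.52) were also among them.

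The remaining lists held few called genes each. Over all genes 11.3% were higher and 7.58% lower. The share called higher was 14.3% for the JAK-STAT genes, 25% for the interferon regulatory factors and 20% for the osteoclast genes, each on few genes. It was 25% for the TNF family and costimulation genes, of which 12.5% were lower. Of the proteasome and ubiquitin genes 16% were lower. Of 14 genes of the IFN-γ receptor and the JAK-STAT pathway 2 were higher: Pim1, a serine/threonine kinase, with 30, 28.1 and 29.9 CPM in IFNy and 116, 105 and 126 in LE+IFNy (1.8, SE 0.148, adjusted p 8.25e-09), and Jak1 (0.96). Of 8 interferon regulatory factors 2 were higher, Irf4 and Irf7. Among 16 TNF family and costimulation genes 4 were higher and 2 lower, with Slamf7, a receptor of macrophages and lymphocytes, at 0.92 and Tnfsf9, the ligand of 4-1BB, at -0.74 (4 and 1 with the trend subtracted). Of 15 osteoclast genes 3 were higher, namely Car2 (1.07), Atp6v0d2 (1.03) and Traf6 (0.62). Proteasome and ubiquitin genes had 4 lower of 25: Psmb5 (-1.01), the immunoproteasome subunit Psmb10 (-0.82), Ube2l6 (-0.75) and Psme2 (-0.63), and 3 lower with the trend subtracted. With it subtracted the counts of the JAK-STAT genes (2 higher), the interferon regulatory factors (2) and the osteoclast genes (3) were as large as before. In 3 of 9 macrophage markers the interaction was higher, Adgre1 (1.17), Itgam (0.84) and Ptprc (0.65). The others were not called: Mpeg1 (0.18), Csf1r (0.18) and Lyz2 (0.16) were positive, and Fcgr1 (-0.48), Spi1 (-0.26) and Cd68 (-0.08) negative.

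Energy metabolism and housekeeping genes were called rarely. Of 38 nuclear respiratory chain genes 0 were called in either direction by edgeR, with a median of -0.28. Of these values 36 were negative, and 23 had an edgeR adjusted p under 0.05 but stayed under the fold limit. Over all 13096 genes 5037 had such an adjusted p. Atp5b had -0.11 and Atp5a1 -0.25. Of 34 cytosolic ribosomal protein genes 0 were called as well, with a median of -0.33, Rpl4 at -0.29 (adjusted p 0.0155) and Rps3 at -0.36 (adjusted p 0.00558). Here 33 values were negative and 24 had an edgeR adjusted p under 0.05. The medians of these 2 lists moved to -0.05 and -0.05 with the length and GC trend subtracted. Of 7 mitochondrially coded genes tested, mt-Co1, a subunit of cytochrome oxidase, was higher (1.05), with 4990, 4820 and 5310 CPM in IFNy and 7440, 8450 and 7640 in LE+IFNy. Hk2 (0.65) was the single call among 20 glycolysis genes, Slc7a11 among 16 NRF2 targets and Lgmn, the lysosomal protease legumain (0.78), among 23 lysosome genes. Among 22 necroptosis and cell death genes Xiap, a caspase inhibitor, was higher (1.17) and Bid, a pro-apoptotic BCL-2 relative, lower (-0.63). With the trend subtracted from the edgeR values 0 of the NRF2 targets and 0 of the necroptosis and cell death genes were called, so that the calls of Slc7a11, Xiap and Bid were lost, while 1 glycolysis gene, 1 mitochondrially coded gene and 2 lysosome genes were higher.

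The same interaction was computed for SE and PE, which share the PBS and IFNy libraries with it. SE gave 1043 called genes (7.96%), with 665 higher and 378 lower, and PE 0 of 13096 by edgeR, with 1073 at an unadjusted p under 0.05. The difference between LE and SE, in which the shared libraries cancel, was called for 116 genes (0.886%), of which 87 were higher (0.664%) and 29 lower (0.221%), and that between LE and PE for 1725 (13.2%), with 962 higher and 763 lower. Both differences are between peptides at the same dose and time, and these 2 pairs were compared. Both reuse the LE+IFNy and LE libraries of the LE interaction.

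**Figure D4:**
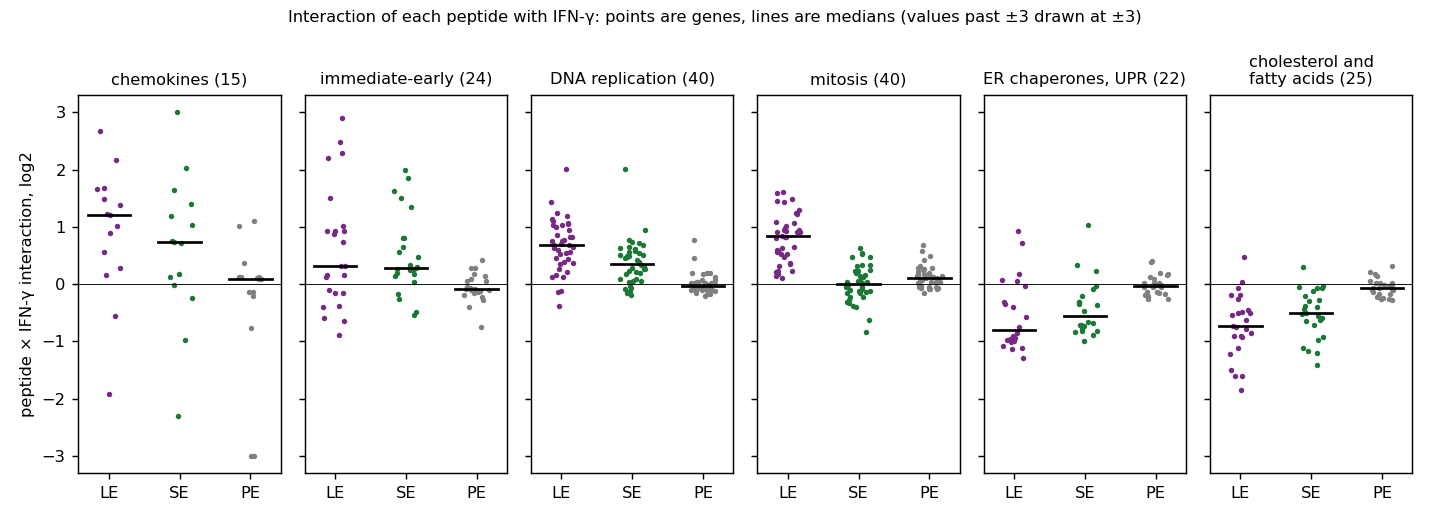
Log2 interaction of LE, SE and PE with IFN-γ for the genes of 6 lists (points) with the median (line). The medians for LE, SE and PE were 0.83, 0.00 and 0.12 in mitosis genes, 1.2, 0.73 and 0.09 in chemokines, and -0.8, -0.57 and -0.03 in ER chaperones.

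Mitosis genes set LE apart from SE. Beside the LE median of 0.83 stood medians of 0.00 (SE) and 0.12 (PE), and in the test of LE against SE 21 of 40 were higher and 0 lower, against 0.664% of all genes higher. All 40 differences were positive, with a median of 0.77. The libraries with the highest mean level were those of LE+IFNy (5.86, 5.9 and 6.08 log2 CPM) against 4.94, 4.93 and 5.13 in SE+IFNy and 5.4, 5.34 and 5.14 in PE+IFNy. Prr11, a cell cycle gene, had 48.9, 49.4 and 64.6 CPM in LE+IFNy and an interaction of 1.43 for LE against 0.02 for SE, a difference of 1.41 (edgeR adjusted p 0.01). Aspm (1.28), Ncapg (1.21) and Hmmr (1.19), a spindle and hyaluronan-binding protein, were also among the largest. These calls rest on 3 libraries per group: with replicate 1, 2 or 3 left out of every group 0, 0 and 2 mitosis genes were called. All 40 differences stayed positive in these fits, with medians of 0.77 to 0.79. The fits reuse libraries of the full fit, which made the kept sign likely, so it is not separate support. The difference between LE and SE had a Spearman correlation of -0.42 with GC content over all genes, and its part in these calls was not tested.

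Calls between LE and SE outside the mitosis list also rest on 3 libraries per group. With replicate 1, 2 or 3 left out of every group 0, 0 and 12 genes in all were called by edgeR (1781, 1332 and 1731 at an unadjusted p under 0.05). Plau, the urokinase that activates plasminogen, had 282, 276 and 391 CPM in LE+IFNy and 150, 133 and 145 in IFNy, with an interaction of 1.19 for LE and -0.03 for SE (difference 1.22, adjusted p 0.00601). Cxcr4 (1.11, adjusted p 0.00426) and Xylt1 (0.85, adjusted p 0.00648) had larger interactions with LE. Bcl3, a nuclear IκB relative, had -0.49 for LE and 0.47 for SE (difference -0.96, adjusted p 0.0143), and Cdsn (-0.82), H2afj (-0.81), Rarg (-0.8), a retinoic acid receptor, and Eme2 (-0.75) were lower with LE. No difference was called for Irf4 (0.32, 95% interval -0.26 to 0.91), Dusp1 (0.3, -0.1 to 0.70), Pim1 (-0.02, -0.32 to 0.28), Cxcl2 (0.98, 0.35 to 1.61, adjusted p 0.0849) or Ccl5 (-0.81, -1.31 to -0.3, adjusted p 0.0811). Of 40 DNA replication genes 1 was called between LE and SE, with medians of 0.68 and 0.36, and of 22 ER chaperones 0 (medians -0.8 and -0.57).

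**Figure D5:**
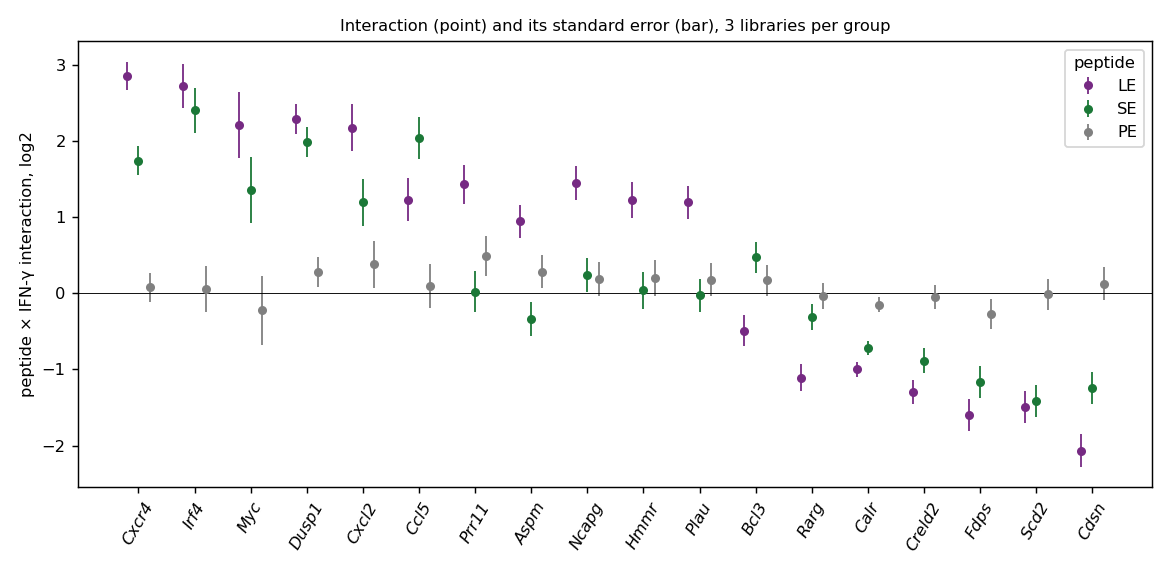
Log2 interaction with IFN-γ (points) and its standard error (bars) for LE, SE and PE in 18 genes. The values for LE and SE were 2.72 and 2.4 in Irf4, 2.29 and 1.99 in Dusp1, 1.43 and 0.02 in Prr11 and 1.19 and -0.03 in Plau, and those for PE were 0.06, 0.28, 0.49 and 0.18.

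Against PE the lists with many calls in the LE interaction differed, while against SE few of their genes did apart from mitosis genes. Between LE and SE 1 of 15 chemokines, 1 of 24 immediate-early genes and 1 of 25 cholesterol and fatty acid genes were called. The interaction of SE itself was higher for 8 of the chemokines and lower for 11 ER chaperones and 10 cholesterol and fatty acid genes. Counts in the test of LE against PE follow. Higher were 9 of 15 chemokines, 26 of 40 DNA replication genes, 25 of 40 mitosis genes and 11 of 24 immediate-early genes (7.35% of all genes). Lower were 12 of 22 ER chaperones and 14 of 25 cholesterol and fatty acid genes (5.83% of all). These lists were singled out by the LE interaction, whose LE+IFNy and LE libraries this difference reuses. The counts are therefore not separate support for it. Cxcr4 differed by 2.77, Myc by 2.43, Gadd45b by 2.43 and Gda by 2.42. Pi16 differed by -2.46, Cdsn by -2.19 and Avil by -2.17. Serpina3g, a serpin that IFN-γ induces, had 0 to 0.0403 CPM in PBS and 0 in LE and 60.3, 66.6 and 80.2 in LE+IFNy, so that its fitted difference of 5.3 rests on groups at the floor and its LE interaction was not called. Bglap2, an osteocalcin gene with near-identical copies whose reads may be shared, had 21.8, 34.9 and 22 CPM in IFNy and 3.6, 5.29 and 2.93 in LE+IFNy, and differed by -2.92, which is uncertain for that reason.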

How the data were processed

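RNA sequencing of poly(A) RNA was analysed for 12 libraries, with 12 more in the same fit. The authors deposited read counts per gene, which they obtained with featureCounts (Rsubread) on uniquely mapped reads, GRCm38.p5 and GENCODE annotation; the aligner is not given in the sources used here. The deposited values are raw counts, not normalized. Counting unique reads lowers near-identical copies, and poly(A) selection misses most histone transcripts. Names that look like dates (26) were not printed.

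Tests used edgeR 4.0.16 in R 4.3.3 (quasi-likelihood F test, TMM, filterByExpr, Benjamini-Hochberg adjustment) on 24 libraries of 8 groups, without a block. A gene was called at an adjusted p under 0.05 and a fold over 1.5. DESeq2 1.42.0, other scalings and filters, left-out libraries and a replicate block were alternatives. On simulated counts 88% of 2-fold and 97% of 4-fold interactions were recovered, with 6 false calls among 12868 genes. There each gene had the same mean level in all groups apart from the planted interactions, which were set only in genes above a minimum level. The simulated counts held no IFN-γ effect, replicate effect or length and GC trend, so these shares apply to that setting only. Totals of 18.65 M to 26.93 M counts give the depth. No libraries agreed within sampling noise (lowest chi-square per degree of freedom 4.96 over 66 pairs). A gene with at most 3 counts in every library of a group was at the floor.

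Named genes were up to 12 per direction with the largest interaction and a mean of at least 10 CPM, up to 4 called members per list with at least 5 CPM (otherwise the 2 most abundant), genes the study names, and up to 5 per direction differing between peptides. The members and lists were chosen with earlier results of these data known. Gene coordinates and lengths are from GENCODE M21 on GRCm38. Some items that the rule names are not reported here.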

Additional observations from a re-analysis of the deposited data

Results flagged for a closer look

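The interaction of LE with IFN-γ differed from that of the other peptides by a test of the difference itself in these results. Between LE and SE 116 genes were called (192 under DESeq2; 0, 0 and 12 with replicate 1, 2 or 3 left out of every group), with log2 differences of 1.41 for Prr11, 1.28 for Aspm, 1.22 for Plau, 1.21 for Ncapg and 1.19 for Hmmr, and of -0.96 for Bcl3, -0.82 for Cdsn, -0.81 for H2afj, -0.80 for Rarg and -0.75 for Eme2. Between LE and PE 1725 genes were called, with 5.3 for Serpina3g (on groups at the floor), 2.77 for Cxcr4, 2.43 for Myc, 2.43 for Gadd45b and 2.42 for Gda, and -2.92 for Bglap2 (copies share reads), -2.46 for Pi16, -2.19 for Cdsn and -2.17 for Avil. Groups of 3 libraries were not tested for a single library that stands apart.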

How the results depend on the processing

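The count of 2471 interactions stayed within 1.5 times under DESeq2 (2458), other scalings (2472 and 2488), no filter (2512), a filter of 5 CPM (2034), the 12 libraries alone (2462) and with replicate 1, 2 or 3 left out (1997 to 2336) or single libraries left out (2138 to 2671). In the 12 fits without 1 library 80.6% to 95.6% of the 2471 calls remained, fewest without PBS replicate 1. All 2471 kept their direction in each, which their selection in the same libraries made likely. With the length and GC trend subtracted it was 1611, with both label series 0 (239 at an unadjusted p under 0.05, edgeR) and with the series as a block 1. The HLA-labelled libraries alone gave 2495, of which 11 were shared in the same direction, and 87 of 95 named called genes had the opposite sign there; 12 of those 24 libraries go against their label. The count between LE and SE was 192 under DESeq2 and 0 to 12 with a replicate number left out (1781, 1332 and 1731 at an unadjusted p under 0.05), and between LE and PE 1130 to 1568, lowest without replicate 3. As a replicate block, the shared numbers gave 2530, 162 and 1771 calls. Same-numbered libraries had correlations of -0.0991 to 0.219, 4 of 18 over 0.1. Their median was 0.0668, against -0.0247 for libraries of other numbers. Of 12 libraries 10 correlated best with their own number, so some of the spread went with the number. The reported fit has no block, and what the numbers share is not in the labels. Of 2481 gene values under alternatives 2419 kept their side of the threshold. Those that turned sign were not called: Il6 with a replicate number left out (-1.03 to 0.31), without PBS replicate 1 (0.116), PBS replicate 3 (0.0293) or LE replicate 3 (0.0208), Ifi44 with a number left out (-0.121 to 0.079), without PBS replicate 2 (0.00772) or LE replicate 1 (0.0532), Il1b with a number left out (-0.914 to 1.95) and Atp5b with the trend subtracted (0.12). Calls of named genes near a limit were lost without 1 library: Isg15 without PBS replicate 1 or LE replicate 3, Tnfsf9 without PBS replicate 1, Lpl without PBS replicate 3 or IFNy replicate 2, Hk2 without PBS replicate 3 or LE replicate 1, Psme2 without LE replicate 3 or LE+IFNy replicate 1, Bid without IFNy replicate 2, and Traf6 without PBS replicate 3 or LE+IFNy replicate 1. The cause was not tested. Depth limits genes under about 1 CPM, such as Il1b, whose intervals span both directions.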
